A study of Mus musculus with 18 samples.

Results

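The genes examined here are 40 genes of glucose entry, glycolysis and pyruvate handling, taken by name as a fixed list from the 47729 genes of the count table, and compared between the eyes of *rd1* mice. Of these, 37 had enough counts to be tested and 3 (*Fbp1*, *Fbp2* and *Pck1*) did not. RPE was collected at P40 (day 40) from 9 mice labelled *rd1* (FVB/N per the study's methods), which carry a *Pde6b* mutation and lose their rods early. The study itself gives fewer *rd1* pairs at this age than the labels do, and it also profiled wild-type mice of this age. The labels put all 9 mice in *rd1*, and they were used as labelled. In each mouse a mixture of 2 vectors, AAV-Best1-Nrf2 (the human *NFE2L2* cDNA behind the human Best1 promoter) and AAV-Best1-GFP, went into 1 eye (Best1-Nrf2), and the fellow eye, given the GFP vector alone, served as control. This gave 18 libraries of amplified poly(A) RNA. Per the labels, all eyes shared the mutation, the age and the GFP vector. The Nrf2 vector was added to the GFP vector and, per the study's methods, was packaged in another capsid, so that Nrf2, the capsid and the larger amount of vector cannot be told apart.

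The RPE stands between the choroidal blood and the photoreceptors and passes glucose from the former to the latter through the transporter encoded by *Slc2a1*. Photoreceptors are strongly glycolytic and export lactate, which the RPE can take up and oxidize by way of pyruvate. Glycolysis is run by families of isozymes, some of which (*Eno2* and *Aldoc*) are best known from neurons and others (*Pgam2*, *Eno3* and *Pfkm*) from muscle. Its pace is set largely at hexokinase, at phosphofructokinase and, through a sugar bisphosphate that activates phosphofructokinase, by the PFKFB enzymes. The fate of pyruvate is then decided by lactate dehydrogenase, by the pyruvate dehydrogenase kinases (PDKs), which switch off pyruvate dehydrogenase, and by pyruvate carboxylase (*Pcx*), which makes oxaloacetate from it.

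Of the 37 tested genes, 2 were higher in Best1-Nrf2 eyes and 0 were lower (edgeR, adjusted p under 0.05 over all 18958 genes tested). These were *Pfkfb4* and *Gpi1*. The share called was 5.41%, beside 4.25% of all genes tested (3.12% higher and 1.13% lower). The list was chosen with earlier results of these data known, so its comparison with all genes is not independent of the values. The comparison also depended on the test. At an unadjusted p under 0.05, 10 of the 37 (27%) were higher and 0 were lower, where 7.55% of all genes tested were higher and 5.29% lower. DESeq2 and limma voom each called 6 of the 37 (16.2%) higher and 0 lower, where 4.96% (DESeq2) and 4.87% (voom) of all genes tested were called higher. On simulated data of this design, 34% of the calls of DESeq2 were false, beside 3.91% for voom and 1.71% for edgeR. The median log2 fold change of the 37 genes was 0.26, against −0.03 for all genes tested, and 24 of them (64.9%) had a positive estimate, compared with 47% of all genes tested. Most individual changes were smaller than the spread between mice, and 35 genes did not pass.

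For the genes that the description turns on, sequence upstream of the gene is shown first. RefSeq promoter windows (250 bases before and 50 after a transcript start, GRCm38.p6) were found for 38 of the 40 genes, and only the stretch that lies before the annotated gene is printed. *Gpi1* and *Pfkfb4* are shown because they passed the test, *Pcx* because it came closest to passing among the others, and *Pgk1* as a glycolytic gene whose window holds hypoxia element cores and which did not pass. Capitals mark the core ACGTG on either strand (CACGT on the other strand, so that neighbouring matches on opposite strands overlap).
*Gpi1*, chr7:34230337-34230586, minus strand: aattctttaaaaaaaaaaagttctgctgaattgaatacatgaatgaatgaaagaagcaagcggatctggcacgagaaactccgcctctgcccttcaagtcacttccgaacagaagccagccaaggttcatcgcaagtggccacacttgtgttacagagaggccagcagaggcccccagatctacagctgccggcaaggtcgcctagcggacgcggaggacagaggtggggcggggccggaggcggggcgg
*Pfkfb4*, chr9:108991652-108991777, plus strand: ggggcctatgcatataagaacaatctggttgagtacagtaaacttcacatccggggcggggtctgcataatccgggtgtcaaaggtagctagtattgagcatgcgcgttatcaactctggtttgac
*Pcx*, chr19:4510222-4510471, plus strand: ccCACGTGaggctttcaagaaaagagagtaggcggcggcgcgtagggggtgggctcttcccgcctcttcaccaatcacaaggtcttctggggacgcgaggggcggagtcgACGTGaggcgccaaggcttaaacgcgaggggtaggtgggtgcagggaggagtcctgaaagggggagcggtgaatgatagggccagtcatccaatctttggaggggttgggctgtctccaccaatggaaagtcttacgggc
*Pgk1*, chrX:106186930-106187099, plus strand: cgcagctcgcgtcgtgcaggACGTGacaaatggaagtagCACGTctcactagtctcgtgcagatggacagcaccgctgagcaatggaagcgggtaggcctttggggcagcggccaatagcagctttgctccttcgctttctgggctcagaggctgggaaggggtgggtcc

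The core of the antioxidant response element bound by Nrf2 with its small Maf partners was searched as TGACNNNGC on both strands, and the core of the hypoxia response element as ACGTG and as GCGTG. TGACNNNGC was found in windows of 6 of the 38 genes (*Aldoa*, *Hk1*, *Fbp1*, *Fbp2*, *Pdhb* and *Mpc1*), beside 14% of all symbols with a window and 12.4% of all 32851 windows. Of those 6 genes, *Aldoa*, *Hk1*, *Pdhb* and *Mpc1* were tested and none passed. ACGTG was found for 18 of the 38 genes, beside 21.8% of all symbols, and in 22 of their 59 windows, beside 19.6% of all windows. GCGTG was found for 24 of the 38, beside 35.2% of all symbols, and in 30 of the 59 windows, beside 32.4% of all windows. The printed stretch of *Pcx* holds 3 matches to ACGTG and that of *Pgk1* holds 2, and those of *Gpi1* and *Pfkfb4* hold no match to any of the 3 patterns. The window of *Pfkfb4* does hold 1 match to GCGTG (chr9:108991785-108991789), which lies just past the printed stretch, inside the annotated gene. A match is only a run of letters, and these windows leave out distal elements.

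*Nfe2l2*, the mouse counterpart of the delivered cDNA, served as a check of the labels. Levels are given as CPM, that is counts relative to the library total after TMM scaling. The level of *Nfe2l2* was 76.7 to 134 CPM in control eyes and 275 to 704 CPM in Best1-Nrf2 eyes, with no overlap (log2 fold change, 2.29, SE 0.21, adjusted p = 6.21e-05, edgeR). Library totals ranged from 18956748 (control replicate 8) to 49598700 counts. The RPE genes *Ttr* (3711 CPM or more in every eye) and *Rpe65* (172 CPM or more) were present throughout, but *Rpe65* had a median of 2201 CPM in control eyes, against 239 CPM in Best1-Nrf2 eyes, and 5 of 15 RPE markers were lower with Best1-Nrf2 and 0 were higher. Fewer cells of a type and less RNA per cell cannot be told apart in such samples.

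Markers of other cells also moved with the treatment. Of 11 cone markers, 10 were lower in Best1-Nrf2 eyes, where they summed to 57.4 to 557 CPM, compared with 308 to 2298 CPM in controls. Of 11 tested rod markers 4 were lower and 1 was higher. Macrophage and microglia markers went the other way, with 9 of 16 higher, 0 lower, and summed levels of 252 to 605 CPM in control eyes and 324 to 878 CPM with Best1-Nrf2. Their part in the changes described here was examined with covariates. With a covariate for rod and cone markers no gene of the 40 was called (43 of all genes), and with one for macrophage markers none was called either (36 of all genes). The log2 fold change of *Gpi1* was then 0.91 and 0.84 (adjusted p = 0.171 and 0.990, edgeR), beside 0.68 without a covariate, and that of *Pfkfb4* was 0.76 and 2.15 (adjusted p = 0.585 and 0.792, edgeR), beside 1.82. With these covariates *Nfe2l2* itself did not pass (adjusted p = 0.0926 and 0.0594, edgeR), and the treatment and these markers cannot be fully told apart. A covariate for inner retina markers left the same 2 genes called.

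Libraries also differed in a measure that did not follow the treatment in every mouse. The share of counts in ribosomal protein genes was 0.53% to 1.14% in 12 libraries and 1.54% to 2.84% in the other 6, which were both eyes of mice 3 and 8, the control eye of mouse 5 and the Best1-Nrf2 eye of mouse 6. It was higher with Best1-Nrf2 in 5 of 9 mice (2-sided exact sign-flip permutation test, p = 0.617). Of the 37 tested genes, 3 (*Hk1*, *Pfkl* and *Pdk2*; 8.11%) were lower in each of these 6 libraries than in any of the other 12, close to the 5.77% of all genes tested. These 6 libraries were picked out by a value measured in them and are not a group of the study, and what sets them apart was not tested.

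With the ribosomal protein share as a covariate, 6 of the 37 genes (16.2%) were called higher, namely *Gpi1*, *Pfkfb4*, *Hk1*, *Pcx*, *Pdk4* and *Pkm*, and 0 lower, where 3.83% of all genes tested were called higher. Without mice 3, 5, 6 and 8, which leaves 5 mice, *Pfkfb4* alone was called (2.7% of the 37), where 1.92% of all genes tested were called higher. Both of these settings were chosen after the values had been seen. For *Hk1* the log2 fold change was 0.37 without the covariate (SE 0.23, adjusted p = 0.601) and 0.47 with it (adjusted p = 0.0436, edgeR).

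Of the 2 glucose transporter genes among the 40, *Slc2a1* had nearly all the RNA. Per kilobase of exon it made up 99.7% ± 0.42 of the pair *Slc2a1* and *Slc2a3* in control eyes and 99.6% ± 0.71 in Best1-Nrf2 eyes (SD, n = 9 each). It was also among the most abundant of the 40 genes, at 256 ± 99.3 CPM per kb in controls, next in mean level after *Aldoa* (621 ± 132) and *Ldhb* (506 ± 156). The ranges of these genes over control eyes overlapped, and *Slc2a1* was the fifth when the longest transcript was used as length. In control eyes *Slc2a1* ranged from 224 to 1292 CPM (median, 1015) and in Best1-Nrf2 eyes from 332 to 1278 CPM (median, 852). The groups overlapped over nearly their whole range, with control replicate 8 lowest, and the log2 fold change was −0.14 with a 95% interval of −0.70 to 0.41 (adjusted p = 0.913, edgeR). *Slc2a3*, the neuronal glucose transporter, was at 0.79 to 15.7 CPM over all eyes (log2 fold change, −0.18; interval, −1.42 to 1.06). Other transporters of the same samples, which are not among the 40 genes, were detected too. *Slc2a12* had a mean of 144 CPM in control eyes and *Slc5a1*, a sodium-coupled glucose transporter, one of 56.9 CPM (not per length), and neither passed.

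Among the hexokinases, which trap glucose in the cell, the housekeeping form *Hk1* made up 82.6% ± 21.5 of the pair with *Hk2* in control and 88.5% ± 15 in Best1-Nrf2 eyes, per length. *Hk2*, an isozyme that photoreceptors use, was at 10.1, 11.2, 14, 4.38, 5.08, 3.90, 5.09, 56.9 and 14.3 CPM in the control eyes of mice 1 to 9 (median, 10.1). In their Best1-Nrf2 eyes it was at 5.16, 2.81, 37.1, 4.43, 4.61, 10.5, 2.35, 7.74 and 3.49 CPM (median, 4.61). Single eyes set the top of each range, control replicate 8 in the former and Best1-Nrf2 replicate 3 in the latter, and the groups overlapped. It was lower with Best1-Nrf2 in 6 of 9 mice (log2 fold change, −0.71, SE 0.47, adjusted p = 0.621, edgeR).

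*Gpi1* encodes glucose phosphate isomerase, the next step (ENSMUSG00000036427, GRCm38 chromosome 7, 34201330 to 34230336, minus strand, protein coding). In the control eyes of mice 1 to 9 its level was 272, 288, 260, 226, 290, 266, 293, 195 and 297 CPM. In the Best1-Nrf2 eyes, in the same order, it was 315, 433, 468, 513, 436, 465, 482, 326 and 393 CPM. All Best1-Nrf2 eyes were above all control eyes, which held for no other of the 37 tested genes (2.7%) and for 1.05% of all genes tested. Mean levels were 265 ± 34.4 and 426 ± 68.5 CPM (SD, n = 9 each). It rose in 9 of 9 mice, and edgeR put the log2 fold change at 0.68 (SE 0.15, adjusted p = 0.0192). The call was lost without mouse 4 (0.61, adjusted p = 0.0644) and without mouse 7 (0.67, adjusted p = 0.0668), and with 5 mice left (0.62, adjusted p = 0.242). A noncoding gene, *Gm26762*, overlaps *Gpi1* and held 2445 counts in all, compared with 233813 for *Gpi1*, and no strand was stated for the counting.

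Phosphofructokinase is the committed step of glycolysis. Per length, *Pfkl*, the liver type, made up 46.3% ± 4.9 of the 3 subunit genes in control eyes, *Pfkm* 33.8% ± 3.4 and *Pfkp* 19.8% ± 3.7. With the longest transcript as length, *Pfkl* made up 54.2% and *Pfkm* 25.7%. In Best1-Nrf2 eyes the shares were 49.2% ± 5.2, 36.3% ± 4.5 and 14.5% ± 2.8. None of the 3 genes passed: the log2 fold change was 0.27 for *Pfkl* (adjusted p = 0.661), 0.27 for *Pfkm* (adjusted p = 0.477) and −0.28 for *Pfkp* (adjusted p = 0.640, edgeR). *Pfkp*, the platelet type, was nevertheless lower in 8 of 9 mice and *Pfkm* higher in 8 of 9. The log2 ratio of *Pfkp* to *Pfkl* within a library was lower by 0.54 ± 0.50 with Best1-Nrf2 (SD, n = 9; 2-sided exact sign-flip permutation test, p = 0.0195, adjusted p = 0.0977 over 15 isozyme ratios), which did not pass. On the genome, *Pfkm* is overlapped by *Senp1* and *Pfkp* by *Pitrm1*.

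The 4 PFKFB enzymes make and break the activator of phosphofructokinase, and *Tigar* encodes a phosphatase that breaks it down. *Pfkfb4* (ENSMUSG00000025648, chromosome 9, 108991778 to 109032228, plus strand, protein coding) had the largest log2 fold change of the 37 genes. In control eyes of mice 1 to 9 it was at 8.86, 5.95, 6.19, 8.57, 4.49, 9.48, 8.64, 14.5 and 7.01 CPM. In Best1-Nrf2 eyes it was at 30.3, 39.4, 8.29, 38.3, 38.7, 17.1, 50.6, 14.5 and 43.2 CPM. The Best1-Nrf2 eyes of mice 1, 2, 4, 5, 7 and 9 were at 30.3 CPM or more, whereas those of mice 3, 6 and 8 were at 17.1 CPM or less and overlapped or adjoined the controls. In mouse 8 the eyes were nearly equal (14.48 and 14.50 CPM). Those 3 Best1-Nrf2 libraries are also the ones with a high ribosomal protein share; the part of this in their lower level was not tested. Means were 8.19 ± 2.87 and 31.2 ± 14.6 CPM (SD, n = 9 each). This was a 3.54-fold rise (log2, 1.82, SE 0.35, edgeR adjusted p = 0.00951) seen in 9 of 9 mice. With the rod and cone covariate the log2 fold change was 0.76 (adjusted p = 0.585, edgeR).

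The same rise can be read as shares of the PFKFB family, which were not tested. Per length, *Pfkfb4* made up 29.6% ± 5.2 of the 4 PFKFB genes in control eyes (23.1% to 38.5%) and 62.8% ± 14 in Best1-Nrf2 eyes (39.9% to 82.3%), with no overlap. *Pfkfb2*, which had the largest mean share in controls (41.8% ± 15.2), made up 21.2% ± 6.8 with Best1-Nrf2, and *Pfkfb3* made up 25.5% ± 16.4 and 13.7% ± 9.7. The levels of *Pfkfb1*, *Pfkfb2*, *Pfkfb3* and *Tigar* did not pass the test. Their log2 fold changes were 0.26 (interval, −0.68 to 1.2), −0.17 (−0.60 to 0.27), −0.24 (−0.87 to 0.39) and 0.28 (−0.26 to 0.82). *Pfkfb1* was close to the lower limit of counting, with a median of 25.5 counts in a library.

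**Figure D1:**
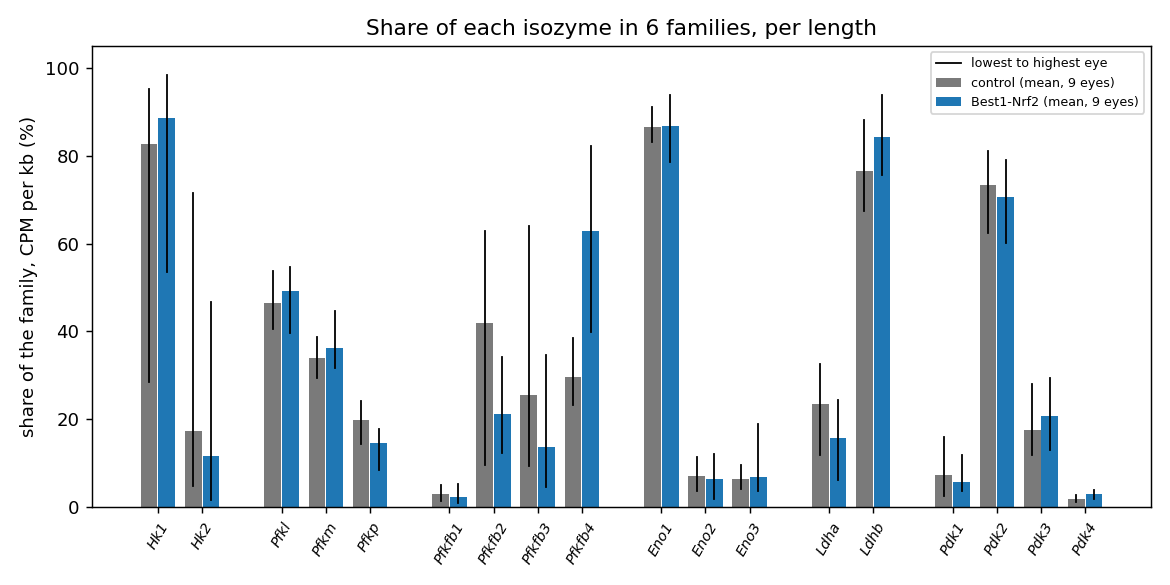
Share of each isozyme in its family, in percent of the summed CPM per kilobase of exon (vertical axis, from 0), for 6 families, with bars for the mean of 9 eyes (grey, control; blue, Best1-Nrf2) and lines from the lowest to the highest eye. *Pfkfb4* is the isozyme whose ranges stand apart, at 23.1% to 38.5% (control) and 39.9% to 82.3% (Best1-Nrf2).

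The reverse step of gluconeogenesis was at the limit of detection. *Fbp1*, a fructose bisphosphatase of liver and kidney, had 8 counts in all 18 libraries together, and *Fbp2*, the muscle form, had 123, so that neither was tested.

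From aldolase to enolase no gene passed in the reported fit. The aldolases *Aldoa* and *Aldoc* had log2 fold changes of 0.32 (adjusted p = 0.588) and 0.30 (adjusted p = 0.604, edgeR). *Tpi1*, which interconverts the triose phosphates, was higher in 8 of 9 mice (0.38, SE 0.15, adjusted p = 0.278). *Pgk1* had 0.26 (adjusted p = 0.608), and *Pgam1*, the general phosphoglycerate mutase, 0.45 with 8 of 9 mice higher (adjusted p = 0.196, edgeR). *Eno1*, the general enolase, had 0.14 with an interval of −0.26 to 0.54. Reads of *Eno1* are hard to place, as the annotated copies *Eno1b* and *Gm4735* held 50.6% of the counts summed over the 3 genes, and the sum gave 0.09 (adjusted p = 0.927).

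*Gapdh* encodes the dehydrogenase that yields the first NADH of glycolysis and is widely used as a reference gene. It was at 194 to 590 CPM in control eyes (median, 306) and at 274 to 1400 CPM in Best1-Nrf2 eyes (median, 558). The highest value was in the Best1-Nrf2 eye of mouse 3, mouse 8 was the only one with a lower level in that eye, and the groups overlapped. The log2 fold change was 0.87 (SE 0.24, adjusted p = 0.0677, edgeR, higher in 8 of 9 mice). *Gapdh* has 41 annotated near-identical copies, which held 63.5% of the counts summed over copies and gene. When these were added to *Gapdh*, the mean was 898 ± 133 CPM for control eyes and 1577 ± 352 CPM for Best1-Nrf2 eyes (SD, n = 9). The summed level passed (log2 fold change, 0.79, SE 0.18, adjusted p = 0.0269, edgeR) and was higher in 9 of 9 mice. *Gapdh* without its copies also passed with voom (adjusted p = 0.0138), without mouse 8 (adjusted p = 0.0434, edgeR) and without mice 6 and 8 (adjusted p = 0.0498, edgeR). With DESeq2, 34% of whose calls were false on simulated data, it passed too (adjusted p = 0.00839).

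*Pkm*, which encodes the pyruvate kinase of most tissues and makes pyruvate, was higher in 9 of 9 mice. It was at 461 to 1136 CPM in control eyes (median, 946) and at 725 to 1966 CPM in Best1-Nrf2 eyes (median, 1360). Of the Best1-Nrf2 eyes, 6 were above the highest control, those of mice 1, 2, 4, 5, 7 and 9. These are the Best1-Nrf2 libraries without a high ribosomal protein share. Over both groups, *Pkm* was at 461 to 992 CPM in the 6 high-share libraries and at 939 to 1966 CPM in the other 12. The part of this share in the level of *Pkm* was not tested. The estimate of 0.68 (SE 0.20, adjusted p = 0.0858, edgeR) did not pass. *Pkm* did pass with voom (0.72, adjusted p = 0.0119) and without mouse 6 (0.76, adjusted p = 0.0444, edgeR). It also passed with DESeq2 (0.68, adjusted p = 0.00673), 34% of whose calls were false on simulated data.

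**Figure D2:**
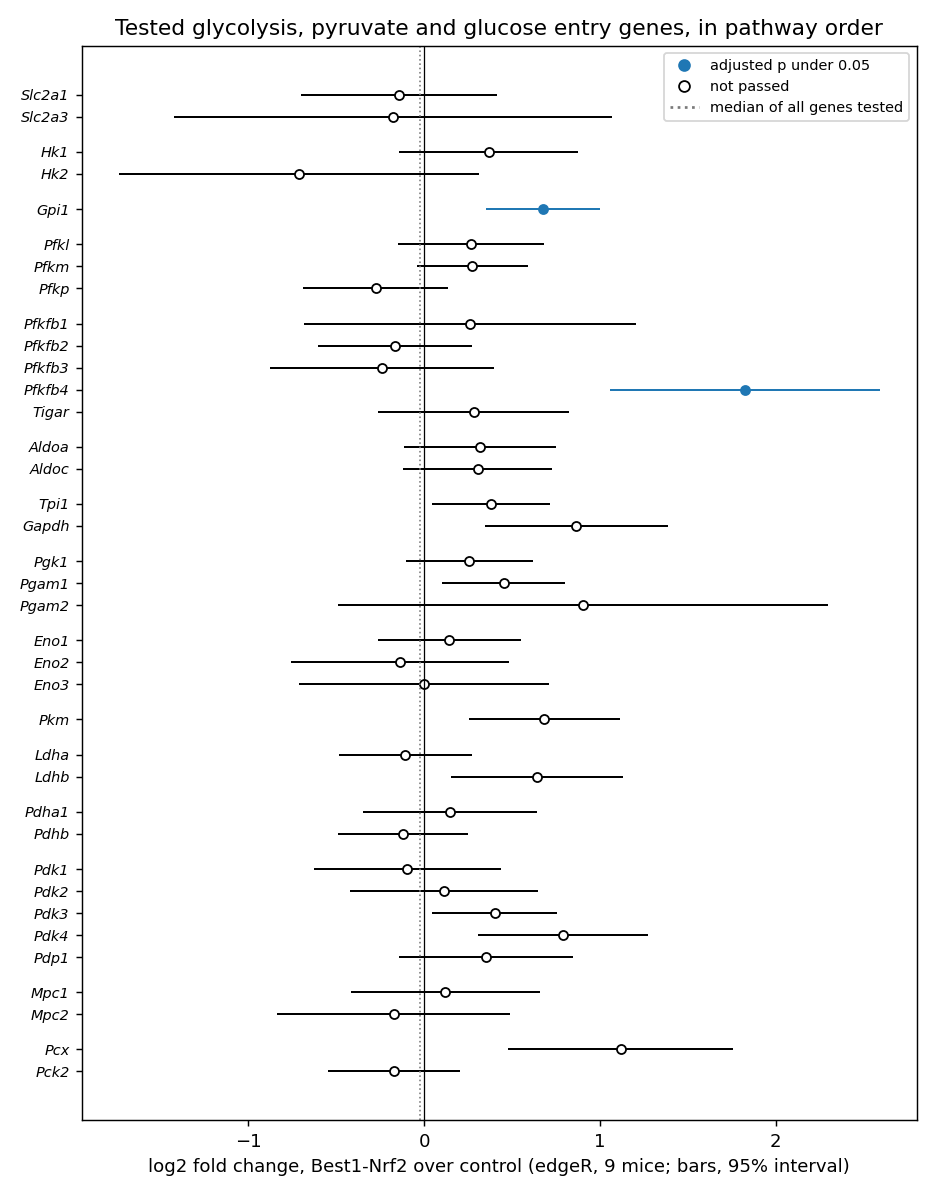
Log2 fold change of Best1-Nrf2 over control (horizontal axis) for the 37 tested genes in pathway order, with 95% intervals from the paired edgeR model over 9 mice. Filled blue points passed an adjusted p of 0.05, open points did not, and the dotted line is the median of all genes tested (−0.03). *Pfkfb4* (1.82) and *Gpi1* (0.68) are the 2 filled points, with most of the remaining intervals crossing 0.

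Lactate dehydrogenase exchanges pyruvate and lactate, and its B subunit is the one favoured in tissues that oxidize lactate. *Ldhb* dominated in these samples, with 76.6% ± 6.4 of the pair *Ldha* and *Ldhb* per length in control and 84.2% ± 5.6 in Best1-Nrf2 eyes. With the longest transcript as length its share in control eyes was 68.5%. Neither gene passed: the log2 fold change was 0.64 for *Ldhb* (SE 0.22, adjusted p = 0.184; higher in 8 of 9 mice) and −0.11 for *Ldha* (interval, −0.48 to 0.27; adjusted p = 0.897, edgeR). The log2 ratio of *Ldhb* to *Ldha* was 0.68 ± 0.56 in control and 1.43 ± 0.70 in Best1-Nrf2 eyes. It was higher in 7 of 9 mice, by 0.75 ± 0.72 on average (2-sided exact sign-flip permutation test, p = 0.0156, adjusted p = 0.0977 over 15 ratios), which did not pass.

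At the entry of pyruvate into mitochondria and its oxidation, no gene passed. The carrier genes *Mpc1* and *Mpc2* had log2 fold changes of 0.12 (interval, −0.41 to 0.65) and −0.17 (−0.83 to 0.48), and the pyruvate dehydrogenase subunits *Pdha1* and *Pdhb* 0.14 (−0.35 to 0.63) and −0.12 (−0.48 to 0.24). Each of these upper bounds was below the estimate for *Gpi1* (0.68).

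Among the PDKs, *Pdk2* made up 73.3% ± 7.8 of the 4 genes per length in control eyes and *Pdk4*, the kinase known to respond to fasting and fatty acids, only 1.86% ± 0.60. *Pdk4* was nonetheless higher in 9 of 9 mice. Its level was 2.05 to 7.61 CPM in control eyes (median, 3.71) and 3.24 to 11.5 CPM in Best1-Nrf2 eyes (median, 7.09), and the groups overlapped. The log2 fold change was 0.79 (SE 0.22, adjusted p = 0.0740, edgeR). It passed with voom (adjusted p = 0.0198) and without mouse 6 (adjusted p = 0.0472, edgeR). It also passed with DESeq2 (adjusted p = 0.00290), 34% of whose calls were false on simulated data. The log2 ratio of *Pdk4* to *Pdk2* was higher with Best1-Nrf2 in every mouse, by 0.06 to 1.92, with a mean of 0.70 ± 0.58. That is the smallest p the design allows (2-sided exact sign-flip permutation test, p = 0.0039), but adjusted over 15 ratios it was 0.0586. *Pdk3* had a log2 fold change of 0.40 (adjusted p = 0.284, edgeR, higher in 7 of 9 mice), *Pdk1* −0.10 (interval, −0.62 to 0.43), *Pdk2* 0.11 (−0.42 to 0.64) and the opposing phosphatase *Pdp1* 0.35 (−0.14 to 0.84).

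*Pcx* (ENSMUSG00000024892, chromosome 19, 4510472 to 4621752, plus strand, protein coding) encodes pyruvate carboxylase, which refills the citric acid cycle. It was at 44.9 to 194 CPM in control eyes (median, 76.7) and at 75.7 to 393 CPM in Best1-Nrf2 eyes (median, 259). The 6 Best1-Nrf2 eyes above the highest control were those of mice 1, 2, 4, 5, 7 and 9, the same mice in which *Pfkfb4* was at 30.3 CPM or more. These are also the Best1-Nrf2 libraries without a high ribosomal protein share. Over both groups, *Pcx* was at 44.9 to 107 CPM in the 6 high-share libraries and at 74.3 to 393 CPM in the other 12. The part of this share in the level of *Pcx* was not tested. In mouse 6 the level was lower with Best1-Nrf2 (75.7 CPM) than in the control eye (106 CPM). The log2 fold change was 1.12 (SE 0.29, adjusted p = 0.0530, edgeR, higher in 8 of 9 mice). It passed under several alternatives, among them voom (1.30, adjusted p = 0.00299), the ribosomal protein covariate (1.24, adjusted p = 0.00211) and the fit without mouse 6 (1.31, adjusted p = 0.00935). *Pcx* also passed with DESeq2 (1.11, adjusted p = 0.00241), 34% of whose calls were false on simulated data. With the rod and cone covariate its estimate was −0.04.

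Phosphoenolpyruvate carboxykinase turns oxaloacetate back towards glucose. The mitochondrial form *Pck2* made up 98.6% ± 3.6 of the pair in control eyes and had a log2 fold change of −0.17 (interval, −0.54 to 0.20; adjusted p = 0.796, edgeR), while the cytosolic form *Pck1* had 114 counts in all libraries and was not tested.

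**Figure D3:**
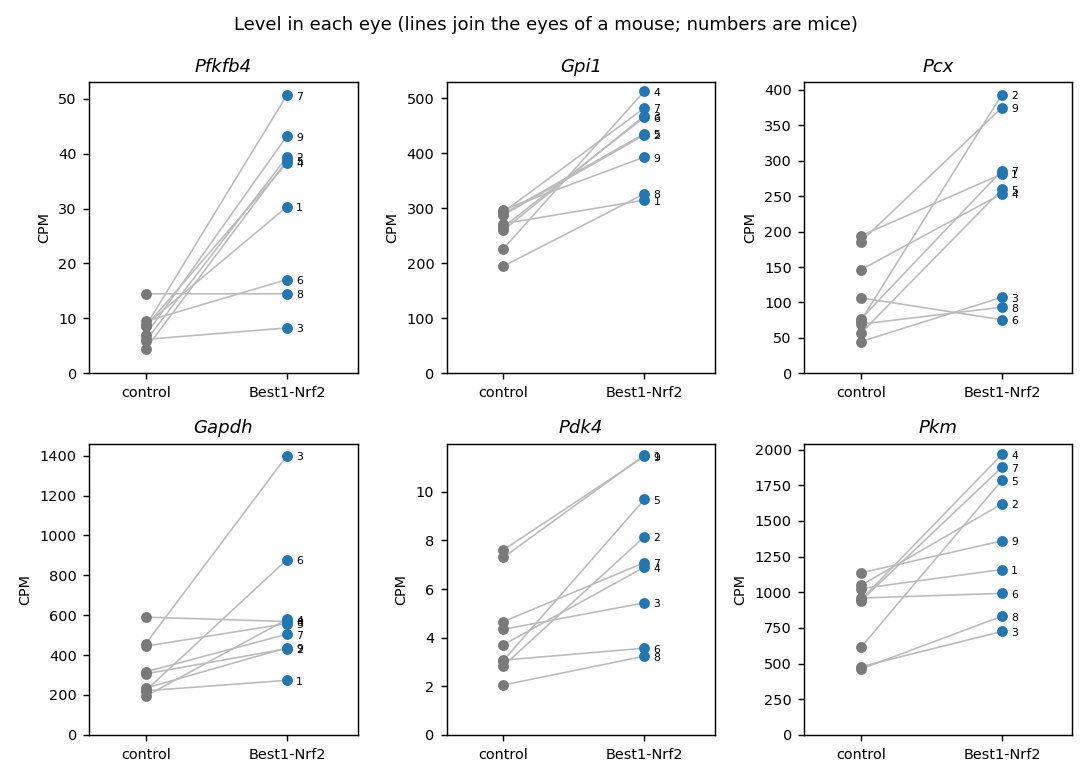
Level in CPM (vertical axes, from 0) of *Pfkfb4*, *Gpi1*, *Pcx*, *Gapdh*, *Pdk4* and *Pkm* in each eye of the 9 mice, with grey points for control and blue points for Best1-Nrf2 eyes, lines joining the eyes of a mouse, and mouse numbers at the right. For *Gpi1* every blue point is above every grey point. For *Pfkfb4* the Best1-Nrf2 eyes of mice 3, 6 and 8 lie at 17.1 CPM or less, and those of the other mice at 30.3 CPM or more.

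*Eno2* and *Aldoc*, together with *Hk2*, were set beside retinal markers, as the samples came from eyecups from which the retina had been peeled. *Eno2* was at 77.9, 52.5, 36.5, 53.7, 30.5, 66.5, 87.9, 26.3 and 118 CPM in the control eyes of mice 1 to 9 (median, 53.7). In their Best1-Nrf2 eyes it was at 59.2, 111, 22.7, 64.8, 40.9, 142, 65.1, 13.3 and 38.2 CPM (median, 59.2), with the highest value in mouse 6. The groups overlapped, and the log2 fold change was −0.14 (SE 0.28, adjusted p = 0.927, edgeR). *Aldoc* was at 202, 360, 282, 271, 367, 304, 336, 176 and 274 CPM in the control eyes (median, 282) and at 281, 313, 513, 377, 269, 510, 372, 348 and 219 CPM in the Best1-Nrf2 eyes (median, 348). These groups overlapped as well, and the highest levels were in the Best1-Nrf2 eyes of mice 3 and 6. Inner retina markers summed to 459 to 1113 CPM in control eyes and 389 to 2683 CPM with Best1-Nrf2. Their mean log2 CPM was highest in the Best1-Nrf2 eyes of mice 6 (6.52) and 2 (5.34), and of the 17 markers 1 was called higher and 0 lower.

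Within-mouse differences of these isozymes were compared with those of marker scores (mean log2 CPM of a list), 9 relations in all, which were chosen after the values had been seen. *Eno2* followed the inner retina score (Pearson's r = 0.77, exact permutation p = 0.0132, adjusted p = 0.0395; Spearman's rho = 0.62, exact permutation p = 0.0857, adjusted p = 0.257; n = 9 mice). Without mice 2 and 6, those farthest out, r was 0.38 (exact permutation p = 0.387), so that the relation rested on them. *Aldoc* and *Hk2* gave r of 0.29 and 0.39 with the same score (adjusted exact permutation p = 0.490 and 0.393; rho = 0.43 and 0.55). With rod and cone markers, r was 0.57 for *Eno2*, 0.56 for *Aldoc* and 0.49 for *Hk2* (adjusted exact permutation p = 0.184, 0.184 and 0.275). Without mice 6 and 9 these turned to −0.44 for *Eno2* and −0.30 for *Hk2*, while *Aldoc* had 0.47 (exact permutation p = 0.328, 0.512 and 0.290).

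Muscle isozymes were set beside skeletal muscle markers in the same way. *Pgam2*, the muscle phosphoglycerate mutase, ranged from 2.03 to 32.1 CPM in control eyes (median, 5.52) and from 3.81 to 72.4 CPM in Best1-Nrf2 eyes (median, 15.2), with the top values in the control eye of mouse 5 and the Best1-Nrf2 eye of mouse 3. The groups overlapped (log2 fold change, 0.90, SE 0.64, adjusted p = 0.660, edgeR, higher in 5 of 9 mice). Skeletal muscle markers, which hold none of the genes studied, summed to 68.6 to 896 CPM in control eyes and 40.8 to 2787 CPM with Best1-Nrf2, and 0 of the 14 tested markers were called at either side. Within mice, *Pgam2* followed the muscle score closely (r = 0.97, exact permutation p = 0.000163, adjusted p = 0.00146; rho = 0.93, exact permutation p = 0.000750, adjusted p = 0.00675; n = 9), also without mice 3 and 9 (r = 0.91, exact permutation p = 0.0052). *Eno3*, the muscle enolase, had a log2 fold change of −0.00 (interval, −0.71 to 0.70) and followed the muscle score as well (r = 0.91, exact permutation p = 0.00101, adjusted p = 0.00456; rho = 0.87, adjusted p = 0.0203), although without mice 3 and 9 r was 0.65 (exact permutation p = 0.0978). *Pfkm* did not follow it (r = 0.26, adjusted exact permutation p = 0.490; rho = 0.08).

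**Figure D4:**
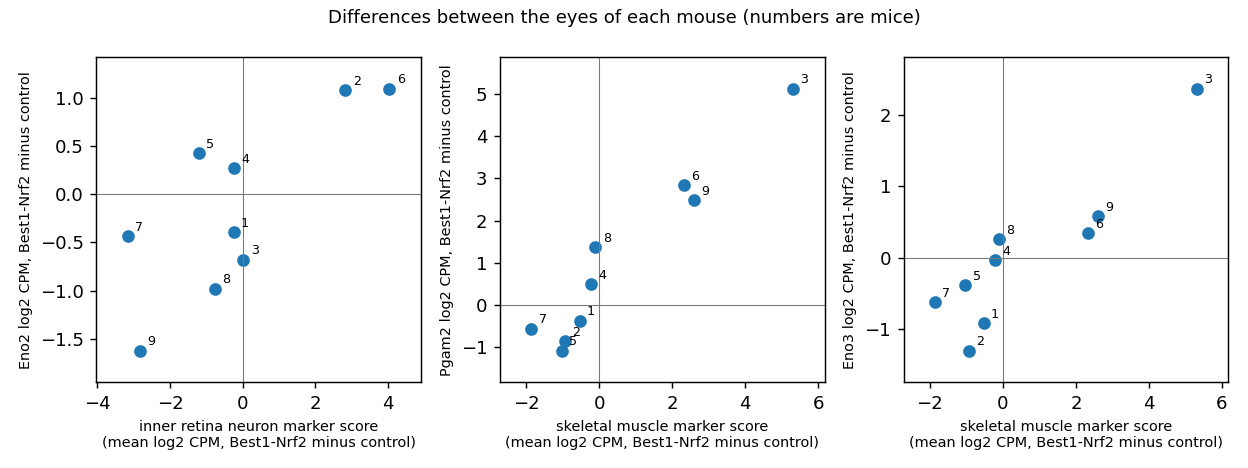
Difference in log2 CPM between the Best1-Nrf2 and the control eye of each mouse for *Eno2*, *Pgam2* and *Eno3* (vertical axes) against the same difference in the mean log2 CPM of inner retina or skeletal muscle markers (horizontal axes). Numbers are mice. *Pgam2* lies close to a line (r = 0.97), whereas for *Eno2* (r = 0.77) mice 2 and 6 stand far to the right.

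Genes next to the pathway were read from the same fit. In a list of 44 further genes of glucose transport, glycogen and pyruvate metabolism, 33 were tested, 2 were higher and 0 were lower, with a median log2 fold change of 0.21. The share called was 6.06%, beside 4.25% of all genes tested. This list too was chosen with earlier results of these data known. *Gbe1*, the glycogen branching enzyme, rose from 28.4 ± 8.5 to 139 ± 65.4 CPM (SD, n = 9 each), with control eyes at 9.52 to 36.4 and Best1-Nrf2 eyes at 55.4 to 221 CPM (log2 fold change, 2.22, SE 0.23, adjusted p = 0.000134, edgeR). *Pgm1* (chromosome 4), the phosphoglucomutase that links glucose phosphate to glycogen, rose from 51.1 ± 16.7 to 121 ± 39.2 CPM, with control eyes at 19 to 74.1 and Best1-Nrf2 eyes at 75.1 to 182 CPM (1.27, SE 0.19, adjusted p = 0.00200, edgeR). Neither gene overlapped between groups (2 of the 33 tested), and both were higher in 9 of 9 mice. Of all genes tested, 1.05% had every Best1-Nrf2 eye above every control eye. Both genes were named for passing the test on these same values. With the rod and cone covariate neither passed, at 2.29 for *Gbe1* and 1.31 for *Pgm1* (adjusted p = 0.0903 and 0.148, edgeR), nor with the macrophage covariate, at 1.94 and 1.1 (adjusted p = 0.345 and 0.990, edgeR). *Pgm1* did not pass without mice 3, 5, 6 and 8 either (1.11, adjusted p = 0.0723, edgeR). *Ugp2*, which makes the glycogen precursor and was singled out after its value was seen, came close (0.56, SE 0.14, adjusted p = 0.0527, edgeR; 9 of 9 mice). The glycogen synthase *Gys1* (0.30) and the phosphorylases *Pygb* (0.36), *Pygl* (0.21) and *Pygm* (−0.22) did not pass.

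Many glycolytic genes are textbook targets of hypoxia-inducible factors, so 15 targets outside glycolysis were read as well. Of these, 2 were higher and 0 were lower, with a median log2 fold change of 0.01 (13.3% called, beside 4.25% of all genes tested). This list of targets was also chosen with earlier results of these data known. *Adm*, which encodes adrenomedullin, rose from 1.95 ± 0.89 to 62.8 ± 44.9 CPM (4.78, SE 0.39, adjusted p = 2.52e-05, edgeR), and *Bnip3*, a mitophagy receptor, from 44.8 ± 13.7 to 99.3 ± 33.0 CPM (1.15, SE 0.20, adjusted p = 0.00575, edgeR). *Adm* did not pass with the rod and cone covariate (3.65, adjusted p = 0.0756, edgeR). *Bnip3* did not pass with the macrophage covariate (1.5, adjusted p = 0.524, edgeR) or without mice 3, 5, 6 and 8 (0.89, adjusted p = 0.152, edgeR). *Vegfa* had −0.14 with an interval of −0.59 to 0.30.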

How the data were processed

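RNA of the RPE from both eyes of 9 mice was profiled (18 libraries, 2 groups). Per the labels, poly(A) RNA went through a low-input amplification kit, and libraries were run in 2 sequencing runs, but which library was in which run is not given in the sources used here, so the run could not be modelled. The authors used STAR and featureCounts on mm10 with Ensembl release 91, and in parallel Salmon (0.8.1 in the submitters' processing notes) with tximport. The deposited table holds expected counts per gene, whole but not scaled; it does not say which counter made it. Counting strand is not given in the sources used here, and intervals cover no PCR duplication.

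Counts were rounded, genes were kept by filterByExpr, and a quasi-likelihood F test of edgeR 4.0.16 (R 4.3.3) was applied after TMM scaling, with mouse as a block and Benjamini-Hochberg adjustment over all 18958 genes tested. The labels give both eyes of an animal the same individual number; after removal of group means, the correlation between the eyes of a mouse had a median of -0.00095 (range, -0.37 to 0.64). Isozyme ratios were compared as log2((count + 0.5) / (count + 0.5)) by a 2-sided exact sign-flip permutation test over 512 assignments. Levels between genes used CPM per kilobase of the exon union (GENCODE release 21, GRCm38), with the longest transcript as an alternative length. Copies are genes with at least 50% of their 31-base words in the gene studied. Relations used SciPy 1.17.1. The 40 genes and all lists were chosen with earlier results of these data known. Values per eye were given for members past the threshold and for *Eno2*, *Aldoc* and *Hk2*, and from the other lists every gene past the threshold was named; further genes were singled out after their values were seen.

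Alternatives were a fit with no replicate block, RLE and upper-quartile scaling, DESeq2 1.42.0, limma 3.58.1 voom with sample weights, no count filter, at least 10 counts in every library, covariates for rod and cone, inner retina and macrophage markers, near-identical copies summed, a threshold of 0.1, a ratio offset of 5, and leaving out each mouse or mice 6 and 8. The scripts were tested on simulated data with this design. False calls made up 1.71% of all calls with edgeR, 3.91% with voom and 34% with DESeq2. Of simulated log2 changes of 1, edgeR recovered 28%, voom 30% and DESeq2 63%.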

Additional observations from a re-analysis of the deposited data

Results flagged for a closer look

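Among 74 groups of 9 eyes (37 genes in each treatment), 6 held an eye that lay far from the others (Dixon's criterion), where chance alone would give about 3.7. Control replicate 8, the smallest library, was the eye in 5 of them. *Slc2a1* was at a log2 CPM of 7.81 there, with the nearest control at 9.16. *Pfkp* was at 5.22 (nearest, 6.58) and *Pdk3* at 3.94 (nearest, 4.6), both low. *Hk2* was at 5.83 (nearest, 3.85) and *Pfkfb3* at 5.96 (nearest, 3.65), both high, with 998 and 1090 counts in that library. *Pdp1* was low in control replicate 3, at 1.57 (nearest, 2.84).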

How the results depend on the processing

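The number of the 37 genes called higher was 2 in the reported fit. It was 6 with DESeq2, with voom and with the ribosomal protein covariate. At a threshold of 0.1 it was also 6, but the share of all genes at that threshold was not counted, so this number has no background. It was 4 (10.8%, all genes 4.03%) without mice 6 and 8 and 1 without mice 3, 5, 6 and 8. With the rod and cone or the macrophage covariate it was 0 (all genes 0.185% with either). Leaving out one mouse at a time gave 1 (2.7%) without mouse 4 or 7, where 2.38% and 2.19% of all genes were called higher. The largest number was 5 (13.5%, all genes 3.84%) without mouse 6. In all of these, 0 genes were called lower. Without the replicate block the same 2 genes were called, *Pfkfb4* at 1.93 and *Gpi1* at 0.68, and 742 of all genes. Over all genes, DESeq2 called 1478 and voom 1426. Of the other pathway genes, 2 in the reported fit, 4 (12.1%) were higher with DESeq2, voom and the ribosomal protein covariate (all genes 4.96%, 4.87% and 3.83%), 1 without mice 3, 5, 6 and 8, and 0 with the rod and cone or macrophage covariate, while 1 was lower with DESeq2, without mice 6 and 8, and without mouse 8 (range over single mice, 0 to 1). Of the hypoxia targets, 2 in the reported fit, 3 (20%) were higher with DESeq2, voom and the ribosomal protein covariate, and 1 (6.67%) with the rod and cone or macrophage covariate and without mice 3, 5, 6 and 8. With the longest transcript as length, control shares moved from 87.5% to 91.8% for *Aldoa* and from 86.5% to 92.3% for *Eno1*.

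Directions held under every alternative for 18 of the 37 genes and 11 of the 15 ratios; those that turned had not passed. The cause was not tested. With the rod and cone covariate the log2 fold change was 1.27 for *Slc2a3*, -0.069 for *Hk1*, 0.84 for *Hk2*, -0.039 for *Pfkfb1*, -0.37 for *Tigar*, 0.90 for *Eno2*, 0.12 for *Eno3*, -0.88 for *Pdha1*, 0.31 for *Pdhb*, -0.90 for *Pdk2*, -0.27 for *Pdp1*, 1.05 for *Mpc2* and -0.044 for *Pcx*. With the macrophage covariate it was 1.96 for *Slc2a3*, 1.02 for *Hk2*, -0.070 for *Pfkl*, 0.13 for *Pfkfb3*, 0.66 for *Eno2*, 0.050 for *Eno3*, -0.43 for *Pdha1*, 0.0089 for *Pdhb*, -0.57 for *Pdk2* and 0.19 for *Mpc2*. Without the replicate block it was 0.30 for *Slc2a3*, 0.019 for *Eno2* and 0.16 for *Eno3*. Voom gave 0.038 for *Eno3*, 0.16 for *Pdk1* and -0.015 for *Mpc1*, and no count filter gave 0.022 for *Eno3*. Without mice 3, 5, 6 and 8 it was 0.0035 for *Pfkfb3*, -0.042 for *Eno1*, 0.24 for *Pdk1* and -0.048 for *Mpc1*, and without mice 6 and 8 it was 0.26 for *Pdk1*, -0.18 for *Mpc1* and -0.11 for the ratio of *Pfkm* to *Pfkl*. Without mice 6 and 9, r with the rod and cone score was -0.44 for *Eno2* and -0.30 for *Hk2*. Leaving out single mice turned *Slc2a1* (-0.27 to 0.030), *Slc2a3* (-0.47 to 0.15), *Eno2* (-0.29 to 0.046), *Eno3* (-0.22 to 0.17), *Pdk1* (-0.18 to 0.075), *Mpc1* (-0.023 to 0.24), *Mpc2* (-0.38 to 0.0011), the ratio of *Slc2a3* to *Slc2a1* (-0.52 to 0.38), the ratio of *Pfkm* to *Pfkl* (-0.080 to 0.094), the ratio of *Pfkfb2* to *Pfkfb3* (-0.15 to 0.27) and the ratio of *Aldoc* to *Aldoa* (-0.11 to 0.069). Changes may have been missed among the 35 genes that did not pass, and these need not be small. On simulated data of this design, edgeR recovered 28% of log2 changes of 1 and 87% of log2 changes of 2.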
